A study of Mus musculus with 32 samples.

Results

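RNA levels of the Pax-, Six-, Lhx-, Lmx- and Nkx-family genes were compared between WT mouse embryonic stem cells (mESCs) and mESCs labelled Eed-/-. The genes were chosen by symbol alone (the stems of Pax-, Six- and Lhx-family genes followed by a number, Lmx1a and Lmx1b, and Nkx of groups 1 to 6), which gave 39 of the 24028 symbols in both tables, with 9 Pax, 6 Six-family, 10 Lhx and Lmx and 14 Nkx genes. RNA was sequenced in 1 library per genotype, so none of the differences below could be set against the spread between cultures, and p-values are not given. Both cultures are labelled strain TT2 and were grown in serum with leukemia inhibiting factor on gelatin, and the labels name no added agent for either. EED is a subunit of Polycomb repressive complex 2 (PRC2), which places methyl groups on lysine 27 of histone H3, and Eed-/- samples of other assays of the study carry another strain label, l7Rn5-3354SB. How many clones the Eed-/- culture stands for is not given in the sources used here. In bulk RNA, more cells that use a gene and more RNA per cell cannot be told apart.

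All of these genes encode transcription factors that give embryonic cells their regional identity. Pax proteins bind DNA through a paired domain, Six-family proteins carry a domain of their own and a homeodomain and work with Eya and Dach cofactors, Lhx and Lmx proteins join LIM domains to a homeodomain and work through the adaptor LDB1, and Nkx proteins pattern ventral neural tube, foregut, heart and skeleton through an NK-type homeodomain. In mESCs such genes are mostly kept silent and are textbook targets of Polycomb.

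Values are FPKM, the fragments of a transcript scaled to its length and to the depth of the library. Steps between low values gave a depth of about 7170000 fragments for WT. The most frequent ratio of low values between the libraries, 1.12, was taken to stand for equal fragment numbers. It set the depth of the library labelled Eed-/- at about 6400000, so that an equal number of fragments gives an FPKM 1.12 times as high there. Eed itself had an FPKM of 63.0 in the WT library, and the library labelled Eed-/- had 70.9, so the RNA level does not check the label, and a mutation that leaves the transcript in place would not show in it. The study checked the loss of Eed on H3K27me3, by western blot and ChIP-seq, which were not analysed here, and directions below are given by label. Values of the library labelled Eed-/- are given as values under the Eed-/- label. The 8 mESC markers summed to an FPKM of 1320 in WT and 1350 under the Eed-/- label, and 4 of the 8 were higher. The near-equal sums hold shifts in both directions. Zfp42 went from 131 to 272, Nanog from 114 to 176 and Utf1 from 167 to 106. At least 2-fold higher was 1 of the 8, where 3.8% of all genes that passed the filter were. Of 8 primitive endoderm markers, 7 passed the filter and all 7 were higher, where 50.9% of all genes that passed were. Their list summed to an FPKM of 15.4 and 56.6, with Foxa2 at 0 under the Eed-/- label. Most of both sums came from Lama1 (8.25 and 33.5) and Col4a1 (5.62 and 19.1). Sox17, at 0 and 0.449, passed only through its level under the Eed-/- label, and Dab2 hardly differed (0.499 and 0.515). Mesoderm markers summed to 1.79 and 4.00, of which Kdr gave 0.158 and 1.59, with Myf5 at 0 in both. Of the 6 that passed 5 were higher, while Mesp1 was lower (0.766 and 0.172). Among the 5, Hand1 (0 and 0.541) and Tbx6 (0.0899 and 0.202) passed only through their level under the Eed-/- label. Neural progenitor markers summed to 105 and 86.4, of which Tubb3 gave 95.4 and 74.0. Nes went from 6.97 to 10.8 and Sox1 from 1.94 to 0.924. Of the 4 that passed 2 were higher, and Neurog2, Hes5 and Fabp7 were at 0 in both. Feeder fibroblast markers summed to 1.73 and 7.22, of which Thy1 gave 0.976 and 6.97, while Col1a1, Col1a2, Col3a1 and Postn had lower values and Lum went from 0 to 0.0817. The part of these markers in the values of the 39 genes was not tested.

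Most of the 39 genes were near silence in both libraries. In WT, 18 were listed above 0 and 4 had an FPKM of at least 2, Six4, Nkx6-2 and Nkx6-3 among them. In the library labelled Eed-/-, 30 were listed above 0 and 5 had at least 2, Six4, Nkx6-2, Nkx2-9 and Lhx6 among them. In all, 29 of the 39 were under 1 in both. The genes that differed most were a small set: Nkx2-9, Nkx1-2 and Lhx6 were the largest differences upwards and Nkx6-3 the largest downwards.

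**Figure D1:**
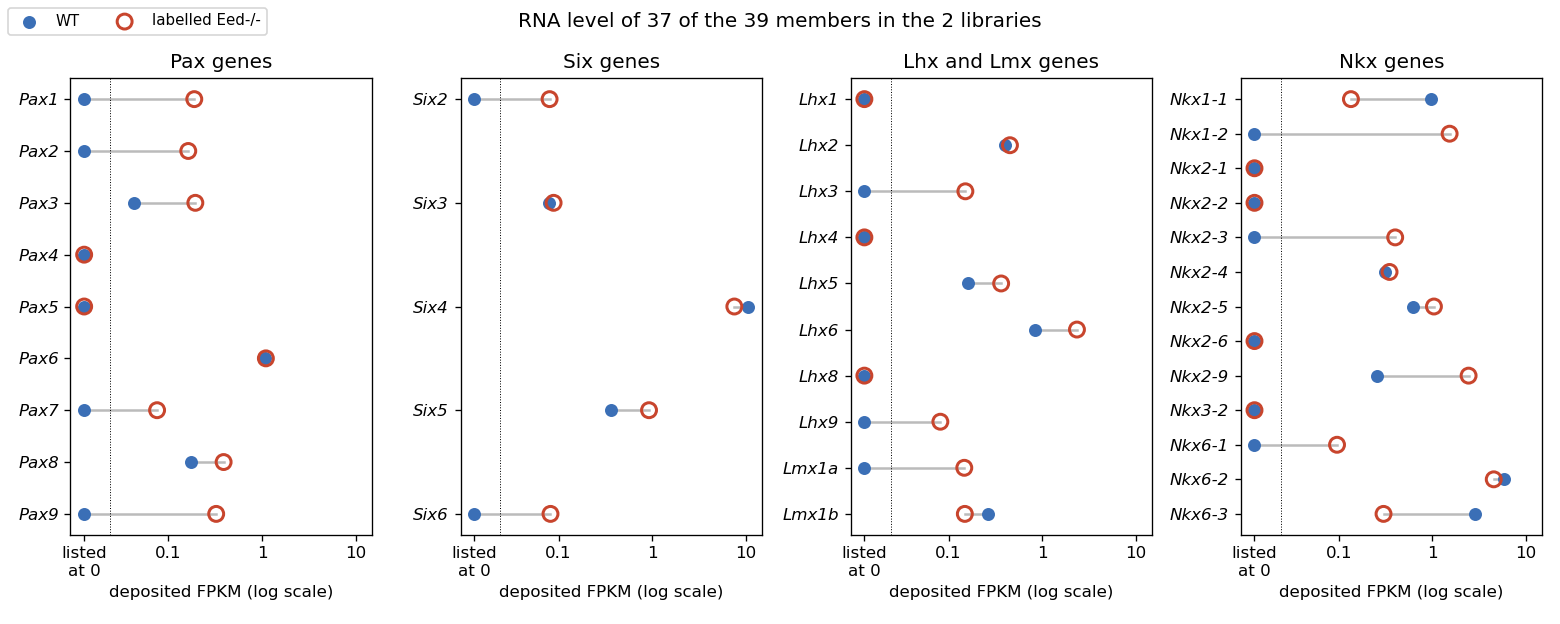
Deposited FPKM on a log scale for 37 of the 39 genes, in 4 panels by family, with WT as filled and the library labelled Eed-/- as open circles, 1 library each, and values of 0 left of the dotted line. In 12 genes the filled circle sits at 0 and the open circle above it, and in no gene is it the reverse.

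The windows before the start of the 3 genes with the largest positive difference on the log2(FPKM + 1) scale are shown because they let the base composition of these promoters be read beside the values. They are the 250 bases upstream of the RefSeq start in GRCm38.p6, a later build than the mm9 of the files, written 5′ to 3′ on the gene's strand with each CG in capitals. The window of Nkx2-9 is chr12:56613285-56613534 (minus strand), that of Nkx1-2 is chr7:132599638-132599887 (minus strand) and that of Lhx6, the first of 3 listed, is chr2:36105409-36105658 (minus strand).
Nkx2-9: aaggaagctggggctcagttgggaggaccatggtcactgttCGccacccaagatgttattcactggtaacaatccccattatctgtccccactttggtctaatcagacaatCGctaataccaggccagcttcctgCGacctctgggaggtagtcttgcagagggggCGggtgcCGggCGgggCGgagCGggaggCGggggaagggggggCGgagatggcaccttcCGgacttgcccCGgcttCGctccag
Nkx1-2: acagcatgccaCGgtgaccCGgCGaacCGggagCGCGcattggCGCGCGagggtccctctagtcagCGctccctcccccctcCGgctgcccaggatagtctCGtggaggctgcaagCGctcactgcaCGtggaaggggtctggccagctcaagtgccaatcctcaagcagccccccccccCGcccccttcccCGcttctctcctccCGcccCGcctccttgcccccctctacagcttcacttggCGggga
Lhx6: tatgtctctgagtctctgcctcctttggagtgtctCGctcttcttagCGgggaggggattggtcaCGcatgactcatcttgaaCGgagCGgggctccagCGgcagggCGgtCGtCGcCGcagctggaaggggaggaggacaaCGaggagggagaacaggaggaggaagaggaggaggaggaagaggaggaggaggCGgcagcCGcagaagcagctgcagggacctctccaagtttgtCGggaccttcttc
They hold 13, 19 and 14 CG. The window of Nkx2-9 holds more than those of 68.2% of genes, that of Nkx1-2 more than 80.4% and that of Lhx6 more than 70.4%. A window was listed for 32 of the 39 genes, and none for 7, Pax3, Pax4, Lhx5, Nkx2-6 and Nkx6-3 among them. The 32 windows held a median of 14 CG (4 to 33), against a median of 6 over 27025 genes, of which 91.7% hold at least 1. CG reads the same on both strands. Genes at 0 in both libraries had a median of 14 (7 windows), genes at 0 in WT alone 12 (12 windows) and genes above 0 in both 15 (13 windows), so the CG number did not separate the genes by their RNA values.

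Of the 21 genes listed at 0 in WT, 12 were above 0 under the Eed-/- label: Pax1, Pax2, Pax7, Pax9, Six2, Six6, Lhx3, Lhx9, Lmx1a, Nkx1-2, Nkx2-3 and Nkx6-1. That is 57.1%, where 13.9% of all symbols at 0 in WT were above 0 under the Eed-/- label. As a share of all 39 genes it is 30.8%, against 4.85% of all symbols, and no gene went the other way, against 4.31% of all symbols. The levels reached were low, from 0.0757 (Pax7) to 1.53 (Nkx1-2). In fragments, 10 of the 12 rested on 5 or fewer and 8 on 3 or fewer, which is the number that a count of 0 allows in WT, so for those 8 a difference was not detectable at this depth. Exact 95% Poisson intervals of the fragment numbers lay apart between the libraries for Nkx1-2 and Pax9, and these cover counting error only. A listed 0 can also be a failed estimate, which was not checked. In all, 52 symbols were at 0 in WT with at least 1 under the Eed-/- label, Nkx1-2 among them, and 61 the other way.

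The other 9 genes were listed at 0 in both libraries. They were Pax4 and Pax5, known for pancreatic beta cells and B cells, Lhx1, Lhx4 and Lhx8, and Nkx2-1 (thyroid, lung and ventral forebrain), Nkx2-2 (ventral neural tube), Nkx2-6 and Nkx3-2 (axial skeleton). Their share, 9 of 39, stands beside 30.0% of all symbols.

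**Figure D2:**
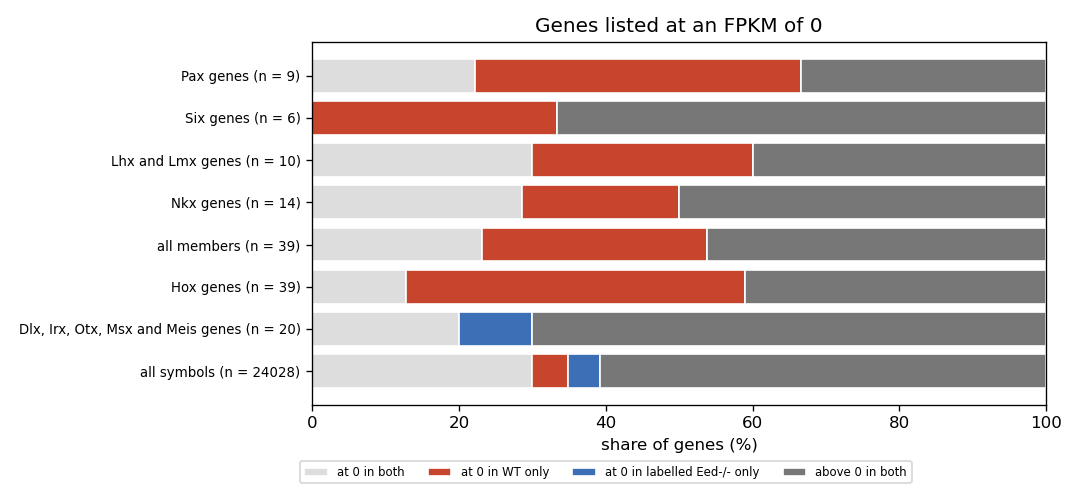
Share of genes, in %, that were listed at an FPKM of 0 in both libraries, in WT only, under the Eed-/- label only or in neither, by family and for 3 reference groups, from 1 library per genotype. The share at 0 in WT only is 30.8% for the 39 genes and 4.85% for all symbols, and the share at 0 under the Eed-/- label only is 0 for each of the 4 families.

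For the size of a difference, the libraries were quantile-normalized and log2(FPKM + 1) in WT was taken from that under the Eed-/- label. This scale understates the change of low genes. A mean normalized FPKM of at least 0.1 was required, which 20 of the 39 genes had. Nkx1-2, Nkx2-3, Pax3 and Pax9 passed only through their level under the Eed-/- label, so the counts over those 20 describe them and carry no weight for the 39. At least 2-fold higher were 2 of the 20 (10.0%), where 3.8% of all genes that passed were, and at least 2-fold lower was 1 (5.0%), where 3.98% were. By any amount 14 were higher (70.0%, against 50.9% of all genes) and 6 lower, with a median of 0.21 against 0.01. Among the 17 genes with a mean of 0.1 to 2, 13 were higher (51.0% of all genes in that range), 2 at least 2-fold higher (2.76%) and 1 at least 2-fold lower (2.49%). Of the 20 genes that passed, 17 were above 0 in both libraries, and the median of these was 0.06. From under to at least an FPKM of 2 after normalization went 2 of 35 genes, Lhx6 and Nkx2-9 (5.71%, against 4.08% of all symbols under 2 in WT), a share near the background. From at least to under 2 went 1 of 4 genes, Nkx6-3, where 6.47% of all symbols did.

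**Figure D3:**
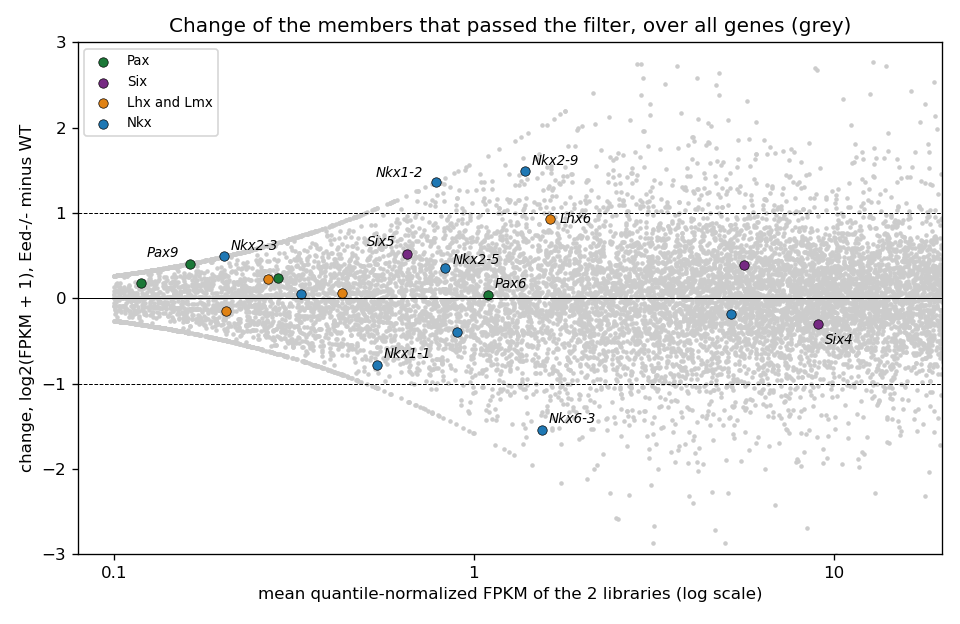
Difference in log2(FPKM + 1), Eed-/- minus WT, against the mean quantile-normalized FPKM (log scale) for genes with a mean from 0.1 to 20, with all genes in grey, the 20 of the 39 genes that passed in colour and the 2-fold limits as dashed lines. Nkx2-9 (1.49) and Nkx1-2 (1.36) lie above the upper limit, Nkx6-3 (-1.54) lies below the lower one, and 13 grey genes beyond a change of 3 are outside the plot.

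The Nkx genes held both the largest rises and the largest fall. Nkx2-9, expressed in the ventral neural tube, lies on chromosome 12 of mm9 from 57712376 to 57714271. Its FPKM was 0.256 in WT and 2.44 under the Eed-/- label, a change of 1.49, on 2 and 17 fragments. The ratio of the levels was 9.55 (exact 95% interval 2.26 to 85.0, counting error only), wide because of the 2 fragments in WT.

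Nkx1-2, a marker of caudal epiblast and tail bud, lies on chromosome 7 from 139786560 to 139791320. It was listed at 0 in WT and at 1.53 under the Eed-/- label, on about 30 fragments (exact Poisson 95% interval 20.2 to 42.8). Its change of 1.36 is no bound on its fold. It was the only gene of the 12 listed at 0 in WT alone that reached an FPKM of 1. In GENCODE vM1 it lies within the span of Fgfr2 on the same strand, and Fgfr2 was listed at 4.22 in WT and 2.18 under the Eed-/- label, so the overlapping gene was lower where Nkx1-2 was higher.

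Nkx6-3, known from the stomach epithelium, lies on chromosome 8 from 24263743 to 24269420. Its FPKM was 2.89 in WT and 0.301 under the Eed-/- label, on about 43 and 4 fragments, a change of -1.54. The ratio was 0.104 (0.0272 to 0.287). Genes of chromosome 8 were lower as a whole, with a median change of -0.38 over 706 genes, and 81 of them (11.5%) were at least 2-fold lower. Nkx6-3 was lower by more than this median, and the part of the chromosome in its fall was not tested. Without it, the median over the remaining 19 genes that passed was 0.23.

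The other Nkx genes moved less than 2-fold on this scale. Nkx1-1, the relative of Nkx1-2, was at 0.964 in WT and 0.135 under the Eed-/- label (-0.78), on about 7 fragments and 1 fragment. The interval of its ratio, 0.00355 to 1.25, holds 1. Nkx6-2, a neural tube and oligodendrocyte gene, was the highest Nkx gene in both libraries at 5.87 and 4.53 (-0.19), and its interval, 0.479 to 1.22, also holds 1. So the values of both genes were lower, by an amount within counting error. Nkx6-2 overlaps Inpp5a on the other strand, at 6.95 in WT and 10.1 under the Eed-/- label.

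On the higher side, Nkx2-5, the heart gene of the family, was at 0.616 and 1.04 (0.36), on 6 and 9 fragments. Nkx2-3, known from spleen and gut, was at 0 and 0.401 (0.49), on 5 fragments. Nkx2-4 had about 3 fragments in each library, at 0.311 and 0.349. Nkx6-1, of beta cells and motor neurons, was at 0 and 0.0959, on 2 fragments. Of the 9 Nkx genes that passed, 5 were higher and 4 lower, with a median of 0.05. Nkx2-2, a 4C target of the study, was at 0 in both, as was Nkx2-2os, its listed opposite-strand transcript.

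All 4 Pax genes that passed were higher, with a median of 0.21, none of them by 2-fold, and Pax3 and Pax9 passed through their level under the Eed-/- label. Pax6, the eye, brain and pancreas regulator and the other 4C target of the study, was the highest Pax gene and hardly differed. It was at 1.08 in WT and 1.10 under the Eed-/- label (0.04) on chromosome 2 from 105509053 to 105543317. Elp4, which overlaps it on the other strand, was at 3.57 and 3.12, and its opposite-strand transcript Pax6os1 was at 0 in both.

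Without Pax6, the other 8 Pax genes summed to an FPKM of 0.217 in WT and 1.33 under the Eed-/- label. The largest part came from Pax8 (kidney and thyroid) and Pax9 (pharyngeal pouches and teeth). Pax8 was at 0.174 and 0.389 (0.24), on about 3 and 6 fragments. Pax9 was at 0 and 0.324 (0.41), on about 9 fragments. Pax3, of neural crest and muscle progenitors, was at 0.0433 and 0.194 (0.18), on about 1 and 5 fragments. Pax1 (sclerotome), Pax2 (kidney and optic stalk) and Pax7 (muscle satellite cells) were at 0 in WT and at 0.189, 0.163 and 0.0757 under the Eed-/- label. The higher sum thus rested on 6 genes of few fragments each. Opposite Pax2 lies 1700039E22Rik, at 0 in WT and 0.262 under the Eed-/- label, so that its value moved with that of Pax2 and was larger, and whether the reads of both were kept apart is not given.

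Six4, which acts in muscle and sensory development, had the highest level of the 39 genes in both libraries. It lies on chromosome 12 from 74201246 to 74214401. Its FPKM was 10.6 in WT and 7.56 under the Eed-/- label (-0.31), with a ratio of 0.713 (0.607 to 0.833). The difference was thus beyond counting error and did not reach 2-fold. In WT its counting interval of 9.61 to 11.7 lay above that of Nkx6-2 (4.35 to 7.83), and under the Eed-/- label 6.66 to 8.52 lay above 3.13 to 6.39.

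Six5 was at 0.362 in WT and 0.927 under the Eed-/- label (0.52), on 7 and 16 fragments, with a ratio of 2.56 (0.997 to 7.36). Six3, a forebrain and eye gene, had about 3 fragments in each library and a difference under 0.01, and its opposite-strand transcript Six3os1 was at 0 and 0.03. Six2, of nephron progenitors, and Six6, of retina and pituitary, were at 0 in WT and at 0.0803 and 0.0821 under the Eed-/- label, on 1 and 2 fragments. Six6 overlaps 4930447C04Rik on the other strand, at 2.71 and 2.86.

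Lhx6 was the LIM homeodomain gene with the largest difference. It specifies interneurons of the medial ganglionic eminence and lies on chromosome 2 from 35937470 to 35960928. Its FPKM was 0.828 in WT and 2.35 under the Eed-/- label (0.92), on about 20 and 50 fragments. The ratio was 2.84 (1.64 to 4.97), while on the log2(FPKM + 1) scale it stayed under 2-fold.

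The other Lhx and Lmx genes stayed under an FPKM of 1 in both libraries. Lhx2, of forebrain and eye, had 6 fragments in each library, at 0.404 and 0.452 (0.06). Lhx5 was at 0.162 and 0.364 (0.23), on 3 and 6 fragments. Lmx1b, which gives the limb its dorsal side, was at 0.265 and 0.149 (-0.14), with an interval of 0.112 to 1.78 for the ratio. It was the only 1 of the 4 Lhx and Lmx genes that passed to be lower, and the median of these 4 was 0.15. Lhx3 (pituitary and motor neurons), Lhx9 (gonad) and Lmx1a (roof plate and dopamine neurons) were at 0 in WT and at 0.151, 0.0816 and 0.147 under the Eed-/- label. Lhx1os, the opposite-strand transcript of Lhx1, was at 0 in both.

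Over the 18 genes above 0 in both libraries, the interval of the ratio left out 1 for 4, Lhx6 and Nkx2-9 upwards and Nkx6-3 and Six4 downwards. It held 1 for the other 14, Pax6 and Nkx6-2 among them, and only just for Six5 (0.997 to 7.36). These ratios use the deposited FPKM, on which 42.6% of all genes that passed were higher, against 50.9% after normalization. The share of all genes with such an interval was not computed, so the 4 of 18 cannot be set against it.

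Several of the genes lie side by side. On chromosome 12, Nkx2-1 was at 0 in both, Nkx2-9, 74.5 kb away, had a change of 1.49 and Pax9, a further 78.5 kb away, 0.41. On chromosome 2, Nkx2-4 (0.05), Nkx2-2 (0 in both libraries) and Pax1 (0.24) lie 92.1 and 168 kb apart. On chromosome 17, Six3 and Six2 lie 52.5 kb apart with changes of at most 0.10.

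In the study, DNA methylation valleys (DMVs) are long stretches of unmethylated DNA, and 23 of the 39 genes are on its list for mESCs, which rests on DNA methylation and not on these RNA values. Of those 23, 12 passed and 10 were higher, with a median of 0.21, and 7 were at 0 in WT alone. Of the 16 genes not on it, 8 passed and 4 were higher, with a median of -0.03, and 5 were at 0 in WT alone. Nkx1-2, Nkx2-3, Pax3 and Pax9, which passed only through their level under the Eed-/- label, are all on the list. The filter thus raised the count of higher genes on the list alone. Over the genes that passed and were above 0 in both libraries, the median was 0.06 on the list (9 genes) and -0.03 off it (8 genes). Over all symbols on the list, 50.7% of those that passed were higher. Nkx1-2 is on the list, while Nkx2-9, Lhx6 and Nkx6-3 are not.

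Genes for proteins that work with these factors were described from fixed lists. Of 6 Eya and Dach genes, cofactors of Six-family proteins, 4 passed, 3 of them lower and 1 higher, with a median of -0.31 and none by 2-fold. The 1 higher gene, Eya2 (0.0657 and 0.221), passed only through its level under the Eed-/- label. Eya1 was at 0.984 in WT and 0.336 under the Eed-/- label (-0.55), and Eya3 at 9.87 and 6.85 (-0.33). Eya1 lies on chromosome 1, where the median change was -0.29 over 758 genes that passed and 28.6% of them were higher. The part of the chromosome in the fall of Eya1 was not tested. Eya4 was at 0 in both.

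Of 12 genes of the LIM domain network, 10 passed, 6 higher and 4 lower, with a median of 0.21. Lmo1, a LIM-only gene, was at 0.181 and 1.78 (1.26), the 1 gene at least 2-fold higher, where 3.8% of all genes were. It rested on about 1 and 10 fragments, and the interval of its ratio was 1.59 to 486. Ssbp3 and Ssbp4, whose products bind LDB proteins, were the 2 at least 2-fold lower, where 3.98% of all genes were. They were at 15.7 and 6.51 (-1.01) and at 29.6 and 12.2 (-1.04). Ssbp4 lies on chromosome 8, where the median change was -0.38 and 11.5% of genes were at least 2-fold lower. The part of the chromosome in its fall was not tested. Ldb1 itself was at 49.7 and 28.3 (-0.59). The others that passed were Isl2 (0.53), Lmo4 (0.50), Lmo2 (0.41), Isl1 (0.36), Ssbp2 (0.07) and Rlim (-0.31). Isl2, at 0.0826 and 0.556, passed only through its level under the Eed-/- label.

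Of 6 Groucho co-repressor genes, 5 passed, 4 lower and 1 higher, with a median of -0.15, none by 2-fold, and Tle4 was lowest at 26.3 and 11.6 (-0.97). The Pax-interacting genes Paxip1 (0.13) and Paxbp1 (0.25) were both higher, with a median of 0.19. Of 5 PRC2 genes, 3 were higher and 2 lower, with a median of 0.07, and Ezh2, the main methyltransferase, was at 34.2 and 17.7 (-0.73).

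**Figure D4:**
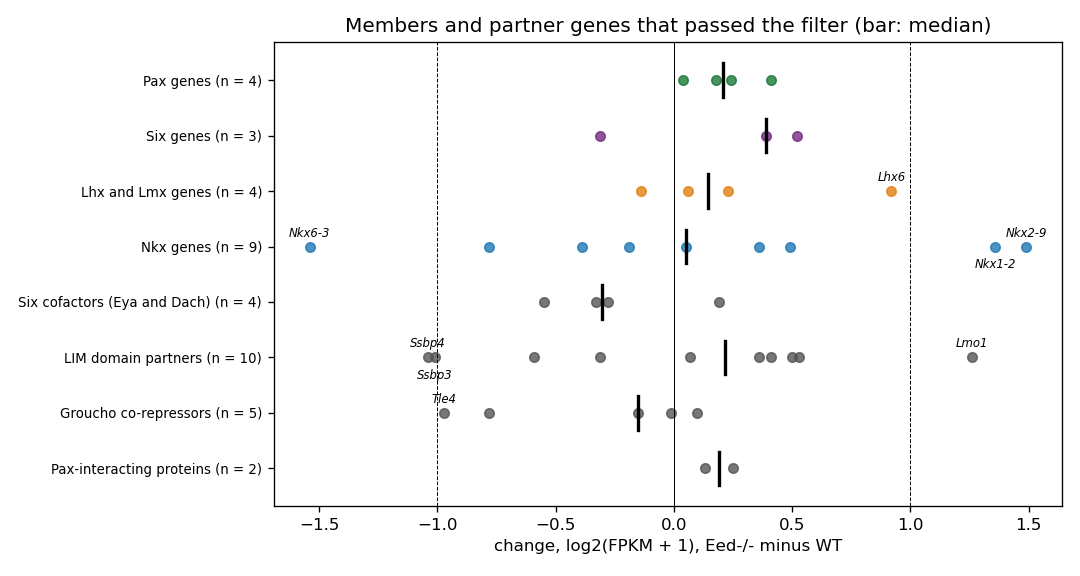
Difference in log2(FPKM + 1), Eed-/- minus WT, for each gene that passed the filter in the 4 families and in 4 lists of partner genes, 1 point per gene from 1 library per genotype, with black bars at the medians and dashed lines at 2-fold. Nkx2-9, Nkx1-2 and Lmo1 lie past the upper line, and Nkx6-3, Ssbp3 and Ssbp4 past the lower one.

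The 39 genes can be set beside 2 other groups of homeobox genes. Of 39 Hox genes, 18 were at 0 in WT alone, and of the 26 that passed 25 were higher and 4 at least 2-fold higher, with a median of 0.53 and a summed FPKM of 1.95 in WT and 19.5 under the Eed-/- label. Of 20 Dlx, Irx, Otx, Msx and Meis genes, none was at 0 in WT alone, 2 were at 0 under the Eed-/- label alone and of the 14 that passed 7 were higher and 3 at least 2-fold higher, with a median of 0.15 and a summed FPKM of 9.76 and 27.8. The 39 genes together summed to 31.1 in WT and 32.5 under the Eed-/- label, since values such as those of Six4, Nkx6-2, Nkx6-3 and Nkx1-1 were lower and those of most other genes above 0 were higher. These differences between groups were not tested.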

How the data were processed

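RNA-seq of WT and Eed-/- mESCs was used, with 1 library each, and the other assays (MethylC-seq, 4C-seq and ChIP-seq) were not analysed here. The authors removed ribosomal RNA from total RNA, kept the strand in the libraries, mapped reads to mm9 (TopHat2 2.0.11 in the submitters' processing notes) and deposited FPKM per symbol from Cufflinks 2.2.1. The annotation, the options and whether strand was used in counting are not given in the sources used here, so reads of a gene and an overlapping gene may not be separated. The 24525 values per library were summed to 24028 symbols, where 268 were repeated and none of the 39 genes was.

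The libraries were quantile-normalized over all symbols. Differences are in log2(FPKM + 1) where the normalized FPKM averaged 0.1 or more, and called at 2-fold. Positions came from GENCODE vM1 on NCBIM37 (mm9), which held 39 of 39 genes. None had a near-identical copy (80% cover, 95% identity, minimap2 2.31). Depth was recovered from low FPKM values in 5103 genes after taking 170 bases off each length, and 80.9% of 758 low values in WT and 81.1% of 853 under the Eed-/- label came within 0.1 of whole fragments, where chance gives 20%. Fragment numbers are exact only in part, since 12 of the 39 genes have 1 transcript and the others use the longest protein-coding one. Genes with 1 transcript can also miss whole numbers. Of the 30 genes above 0 under the Eed-/- label, 14 came within 0.15 of whole fragments in both libraries. Intervals are exact Poisson and exact conditional intervals at 95% and cover counting error only. A count of 0 allows 3 fragments. Promoter windows are from RefSeq (GRCm38.p6).

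Named with values were genes with a normalized FPKM of at least 1 in either library, the 10 largest rises and 5 largest falls, Pax6, Nkx2-2, opposite-strand transcripts and Eed, and the others were added. Of the 39 genes, 2 count in the totals but are not reported here by name. Partner lists were Six-family cofactors, LIM domain partners, Groucho co-repressors, Pax-interacting proteins and PRC2 subunits, and marker lists were mESC, primitive endoderm, mesoderm, neural progenitor and feeder fibroblast. The genes and lists were chosen with earlier results of these data known. With 1 library per genotype no test was made. The computations were tested on simulated data. The levels simulated and the outcome are not given here, so no assurance for genes of few fragments is drawn from the simulation. Alternatives were the deposited FPKM, median-ratio scaling, other pseudocounts, filters, folds and detection levels, and repeated symbols left out. The tools were scipy 1.17.1, pandas 2.3.3, numpy 2.4.6 and matplotlib 3.10.9 under Python 3.11.15.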

Additional observations from a re-analysis of the deposited data

How the results depend on the processing

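The pseudocount and the filter moved the results on groups of genes most. With 0.1 the median of the 20 genes that passed was 0.58 and with 0.01 it was 0.63, where that of all genes was 0.02, and the Pax median was 0.89 and 1.43 and that of the Lhx and Lmx genes 0.49 and 0.65. At least 2-fold higher were then 6 and 9 genes, where 11.42% and 12.9% of all genes were, and at least 2-fold lower were 2 and 2, where 11.99% and 13.41% were. A smaller pseudocount gives more weight to genes of few fragments by its construction. With a mean FPKM of at least 1, which 7 genes had, 1 was at least 2-fold higher (4.76% of all genes) and 4 were higher by any amount (50.7%). The median of the genes was then 0.04, that of the Pax genes 0.04, of the Six-family genes 0.04, of the Lhx and Lmx genes 0.92 and of the Nkx genes -0.19, each over fewer genes. With no filter, 23 of 39 were higher by any amount (35.2% of all symbols) and the median was 0.10. A 3-fold threshold left 0 genes on either side, and a 1.5-fold threshold gave 3 higher (12.26% of all genes) and 2 lower (12.41%). With the deposited FPKM, median-ratio scaling or repeated symbols left out, counts stayed within 1.5 times the reported ones and medians kept their sign. Of the 17 named genes, none turned its direction with the deposited FPKM or median-ratio scaling. A smaller pseudocount cannot turn a direction, but it moved sizes, as for Nkx1-2 from 1.36 to 7.3 with 0.01. Among the alternatives on these genes, 21 moved a change beyond its counting error and 47 did not. All 21 were smaller pseudocounts.

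Leaving out a replicate was not possible, with 1 library per genotype. No paired analysis was possible because each genotype has 1 RNA library and no test was made. At this depth an FPKM of 0.1 stands for few fragments, and counting intervals leave out the spread between cultures.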
